A study of Mus musculus with 6 samples.

Results

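This account covers 10 genes for secreted Wnt pathway proteins that textbook knowledge places mainly in the stroma of the intestine. They are the Wnt ligands Wnt2b, Wnt4 and Wnt5a, the R-spondins Rspo1, Rspo2 and Rspo3, and the secreted inhibitors or inhibitor relatives Sfrp1, Dkk2, Dkk3 and Wif1. They were chosen by symbol, and all 10 were found among the 20533 genes of the deposited table through their Ensembl identifiers in GENCODE mouse release M21. RNA came from colon of male C57BL/6 mice of wild type genotype that were 7 weeks old. The mice received 2% dextran sulphate sodium (DSS) together with montmorillonite powder, 2% DSS without the powder, or water, in each case for 7 days. DSS is a sulphated polysaccharide used to injure the colonic epithelium, and montmorillonite is a layered clay mineral, whose dose is not given in the sources used here. There were 6 libraries, 2 in each of the 3 groups. Whether the 2 libraries of a group stem from different mice is not said in the labels, so the p-values given here reflect the spread between libraries, which may be technical.

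Wnt ligands bind Frizzled receptors and Lrp5 or Lrp6 on a neighbouring cell and, in the canonical branch, keep β-catenin from being degraded, so that TCF factors switch on target genes such as Axin2. R-spondins bind Lgr4, Lgr5 and the ubiquitin ligases Rnf43 and Znrf3, which would otherwise remove Frizzled from the cell surface, and so raise the response to Wnt. In the mouse intestine, fibroblasts below the epithelium and around the crypt base are known sources of these ligands, R-spondins and inhibitors, and the stem cells at the crypt base depend on the signal.

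The deposited values are read counts divided by 1 factor per library, called normalised read counts here. The libraries held 6395768 and 4494666 reads in DSS plus montmorillonite, 21481594 and 15212981 reads in DSS, and 8936826 and 3741494 reads in water. A single read was worth 1.44 and 1.82 in DSS plus montmorillonite, 0.335 and 0.479 in DSS, and 0.960 and 2.27 in water, so low genes were measured more finely in DSS than in the other groups. A pair of libraries stood apart in their content of stratified squamous epithelium. The summed value of 8 squamous markers such as Krt5 was 115 and 7413 in DSS plus montmorillonite, 174 and 40793 in DSS, and 31.7 and 450.3 in water, so replicate 2 of each DSS-treated group was the high one. Of the 8 markers, 2 and 0 were without a read in DSS plus montmorillonite, 1 and 0 in DSS, and 5 and 0 in water. Skeletal muscle markers summed to 3373 and 173 in DSS plus montmorillonite, 117 and 2947 in DSS, and 568 and 312 in water. The part of either tissue in the results was not tested. Log2 fold changes are therefore also given with replicate 2 of DSS, or a library of DSS plus montmorillonite, left out. The 10 general fibroblast markers, among them Pdgfra, Col1a1 and Dcn, had reads in every library, but RNA of whole tissue does not show which cells made a transcript.

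Between DSS and water, 4 of the 10 genes rose and none fell, at an adjusted p below 0.05 in limma, a linear model fitted across all genes. They were Wnt5a, Rspo3, Sfrp1 and Wif1, with fitted folds between 3.84 and 6.37. Of all 20307 genes tested, 7.9% rose and 7.18% fell. Rspo2 had almost no reads outside DSS and is left out of the counts of libraries that follow. In 7 of the other 9 genes both DSS libraries lay above both water libraries, which was the case for 33.9% of all genes, while Wnt2b and Dkk2 overlapped. The median log2 fold change was 1.94 over these 9 genes and 0.10 over all genes tested. None of the 10 genes passed between DSS plus montmorillonite and water, or between DSS plus montmorillonite and DSS. These calls come from fits of the 4 libraries compared. With all 6 libraries in 1 limma fit, none of the 10 and 0 genes in all passed between DSS and water. In that fit 5 of the 9 had an unadjusted p below 0.05, as did 23.0% of all genes. With any 1 of the 4 libraries left out, none of the 10 passed either. The count tests on the recovered reads called 5 of the 10 in edgeR and 7 of the 10 in DESeq2, each higher in DSS, where 8.2% and 10.5% of all genes were called higher. Scaled by library size alone, limma called 2199 genes higher and 893 lower in DSS, against 1605 and 1459 with the deposited scaling, and 6 of the 10 genes, each higher.

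**Figure D1:**
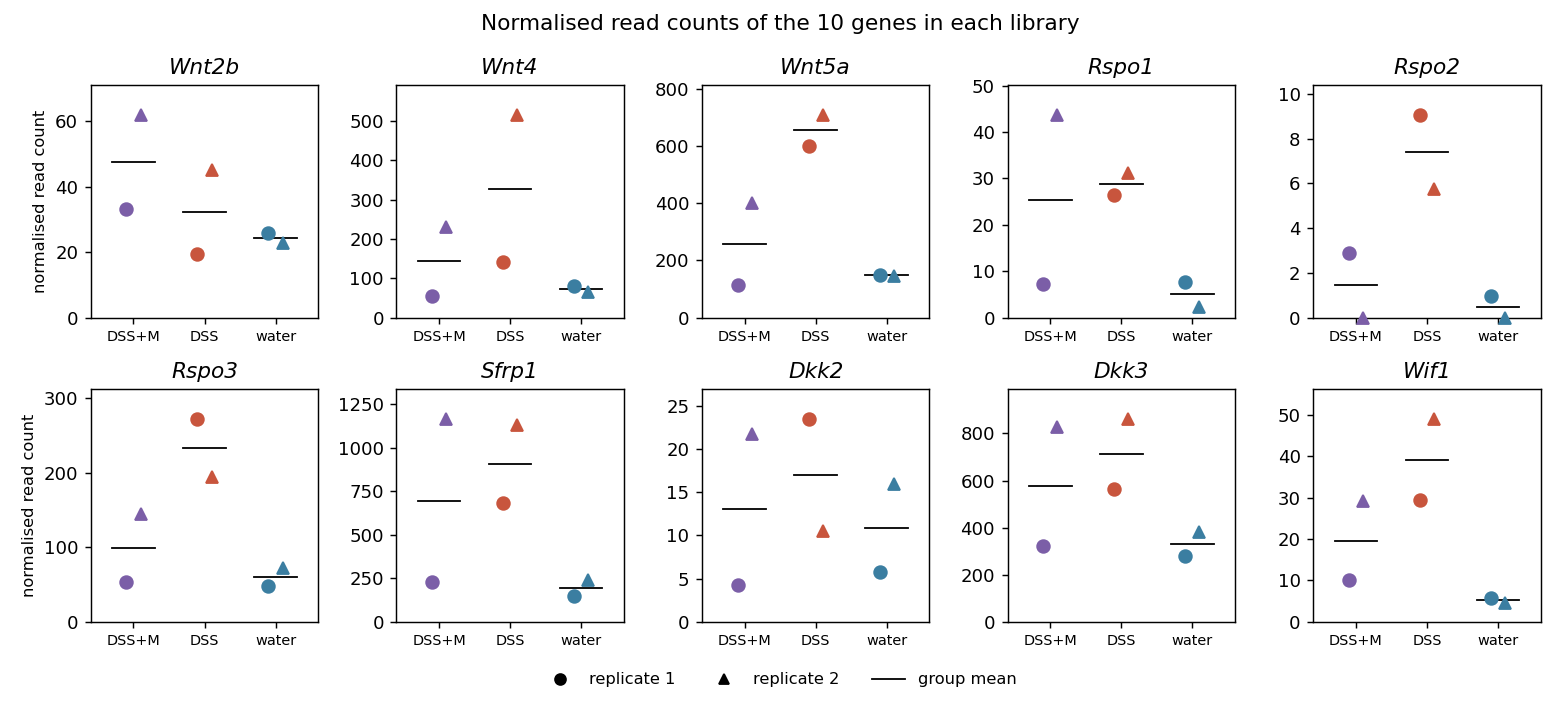
Normalised read counts of the 10 genes in each library. Each panel is 1 gene, circles are replicate 1 and triangles replicate 2, and bars are group means of DSS plus montmorillonite (DSS+M), DSS and water. In 8 panels, among them Rspo2 with few reads, both DSS points lie above both water points, and in 9 panels replicate 2 of DSS plus montmorillonite lies above replicate 1.

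Among the Wnt ligands, Wnt5a is best known for signalling that does not use β-catenin, and in mouse colon it is known from stromal cells of wounds. Its gene lies at chr14:28504750-28527448 on the plus strand of GRCm38. Wnt5a had normalised read counts of 112 and 402 in DSS plus montmorillonite, 600.3 and 707 in DSS, and 149 and 146 in water. Both DSS libraries were above all others, replicate 2 of DSS plus montmorillonite lay between the other groups, and replicate 1 was below both water libraries. Means were 257 ± 205 in DSS plus montmorillonite, 653 ± 75.1 in DSS and 147 ± 2.28 in water (SD, n = 2 each). Wnt5a rose 4.40-fold in DSS over water (log2 fold change 2.14 ± 0.20 SE, 95% interval 1.66 to 2.62, limma adjusted p = 0.00593). Without replicate 2 of DSS its log2 fold change was 2.02 (limma adjusted p = 0.0761). An antisense gene, Gm2670, overlaps the span of Wnt5a, and whether the pair share exons was not tested. Since the counting is not stated to use strand, reads of a shared exon cannot be told apart.

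Wnt4 acts through β-catenin or without it, depending on the tissue, and lies at chr4:137277489-137299726 on the plus strand. Wnt4 had 56.1 and 231 in DSS plus montmorillonite, 140.4 and 515 in DSS, and 81.6 and 66.0 in water. Replicate 2 was the high library in each of the DSS-treated groups, and both DSS libraries were above both water libraries. Wnt4 did not pass between DSS and water (log2 fold change 1.86 ± 0.60 SE, 95% interval 0.40 to 3.32, limma adjusted p = 0.0900). DESeq2 on the recovered reads called it (adjusted p = 0.00194), whereas edgeR did not (adjusted p = 0.0569). Without replicate 2 of DSS, the library with the most squamous marker RNA, its log2 fold change was 0.93 (limma adjusted p = 0.243).

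Wnt2b, a canonical ligand of the mesenchyme around crypts, lies at chr3:104945272-104961921 on the minus strand, with a sense-intronic gene, Gm43846, inside it. Wnt2b had 33.1 and 61.8 in DSS plus montmorillonite, 19.4 and 45.1 in DSS, and 25.9 and 22.7 in water. The DSS libraries lay on either side of the water libraries. The log2 fold change between DSS and water was 0.28 ± 0.54 SE (95% interval -1.04 to 1.60, limma adjusted p = 0.754), and it was -0.31 without replicate 2 of DSS (limma adjusted p = 0.726). Of the 3 ligands, Wnt2b alone had its highest mean in DSS plus montmorillonite, at 47.4 ± 20.3, against 32.2 ± 18.1 in DSS and 24.3 ± 2.24 in water (SD, n = 2 each).

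Rspo3, described as the main R-spondin of the mouse colon stroma, lies at chr10:29452416-29535867 on the minus strand and is overlapped by the antisense gene Gm48159 and by Gm20276. Rspo3 had 53.2 and 145 in DSS plus montmorillonite, 272 and 195 in DSS, and 48.0 and 72.8 in water. Both DSS libraries were above the other 4, and replicate 1 of DSS plus montmorillonite lay between the water libraries. Rspo3 rose 3.84-fold in DSS over water (log2 fold change 1.94 ± 0.33 SE, 95% interval 1.13 to 2.75, limma adjusted p = 0.0188). Leaving out replicate 2 of DSS gave a log2 fold change of 2.18 (limma adjusted p = 0.172).

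Rspo1 is known in mice as a strong mitogen for intestinal epithelium, and lies at chr4:124986430-125009099 on the plus strand, overlapped by the antisense gene Gm12930. Rspo1 had 7.19 and 43.6 in DSS plus montmorillonite, 26.5 and 31.2 in DSS, and 7.68 and 2.27 in water. The highest and 1 of the 3 lowest values both came from DSS plus montmorillonite. The log2 fold change of DSS over water was 2.48 ± 0.66 SE (95% interval 0.87 to 4.09) and did not pass limma (adjusted p = 0.0574) or edgeR (adjusted p = 0.0546), while DESeq2 called it (adjusted p = 0.0484). Its log2 fold change was 2.37 without replicate 2 of DSS (limma adjusted p = 0.320).

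Rspo2 acts through the same receptors, and lies at chr15:43020794-43170826 on the minus strand. It was close to the limit of detection, with 2 and 0 reads in DSS plus montmorillonite, 27 and 12 reads in DSS, and 1 and 0 reads in water. A count of 0 allows up to 3 reads, which is a value of 5.45 in replicate 2 of DSS plus montmorillonite and 6.82 in replicate 2 of water. Over the depth of the libraries the ratio of DSS to water was 11.4 with an exact 95% interval of 1.93 to 461, and the ratio of DSS plus montmorillonite to DSS was 0.209 with an interval of 0.0244 to 0.806. Such intervals and limits cover counting error only. Rspo2 passed the filter on low values through its DSS libraries, and did not pass limma between DSS and water (adjusted p = 0.0606). Without replicate 2 of DSS its log2 fold change was 2.84 (limma adjusted p = 0.194). Since the 0 in water allows a value above that of replicate 2 of DSS, the order of these libraries is not established.

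Sfrp1, a secreted protein with a Frizzled-like domain that binds Wnt ligands, lies at chr8:23411502-23449632 on the plus strand. Sfrp1 had 226 and 1161 in DSS plus montmorillonite, 684 and 1128 in DSS, and 149.7 and 239 in water. Replicate 2 of DSS plus montmorillonite was the highest of the 6 libraries, and replicate 1 lay within the water range. Sfrp1 rose 4.63-fold in DSS over water (log2 fold change 2.21 ± 0.33 SE, 95% interval 1.39 to 3.03, limma adjusted p = 0.0146). Leaving out replicate 2 of DSS gave a log2 fold change of 1.85 (limma adjusted p = 0.201).

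Wif1, which binds Wnt ligands in the extracellular space, lies at chr10:121033960-121100650 on the plus strand. Wif1 had 10.1 and 29.1 in DSS plus montmorillonite, 29.5 and 48.9 in DSS, and 5.76 and 4.55 in water. The 3 groups did not overlap in these values, with DSS highest and water lowest. Reads were 7 and 16 in DSS plus montmorillonite and 6 and 2 in water. A single read was worth 1.82 in replicate 2 of DSS plus montmorillonite, more than the step from 29.1 to 29.5. The place of DSS plus montmorillonite between the other groups is therefore not established. Wif1 rose 6.37-fold in DSS over water, the largest fold among the 4 genes that passed (log2 fold change 2.67 ± 0.53 SE, 95% interval 1.36 to 3.98, limma adjusted p = 0.0277). Leaving out replicate 2 of DSS gave a log2 fold change of 2.32 (limma adjusted p = 0.182).

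Dkk3, a divergent member of the Dickkopf family whose effect on Wnt signalling varies with the cell type, lies at chr7:112116017-112159057 on the minus strand. Dkk3 had 324 and 827 in DSS plus montmorillonite, 566 and 859.5 in DSS, and 280.3 and 382 in water. The DSS libraries were above the water libraries, and those of DSS plus montmorillonite spanned most of the range. The log2 fold change of DSS over water was 1.09 ± 0.27 SE (95% interval 0.42 to 1.76), at the threshold in limma (adjusted p = 0.0503) and past it in edgeR (adjusted p = 0.0364) and DESeq2 (adjusted p = 0.00571). Its log2 fold change was 0.79 without replicate 2 of DSS (limma adjusted p = 0.292).

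Dkk2, which binds Lrp5 and Lrp6 and can block the co-receptors, lies at chr3:132085292-132180304 on the plus strand. Dkk2 had 4.31 and 21.8 in DSS plus montmorillonite, 23.5 and 10.5 in DSS, and 5.76 and 15.9 in water. All 3 groups overlapped. The log2 fold change of DSS over water was 0.65 ± 0.71 SE (95% interval -1.08 to 2.39, limma adjusted p = 0.566), and it was 1.19 without replicate 2 of DSS (limma adjusted p = 0.530).

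Promoters from RefSeq (GRCm38.p6, 250 bases before to 50 after the start) were at hand for 5 of the 10 genes, namely Wnt2b, Wnt4, Rspo1, Dkk2 and Wif1. The 3 below are shown because they pair the gene with the largest called fold (Wif1), a gene whose DSS libraries were both above water without a limma call (Wnt4) and a gene whose groups overlapped (Dkk2). Both strands were searched for the TCF/LEF core CTTTGAT, the AP-1 motif TGANTCA and the TATA box TATAAA. Capitals mark a TATAAA match, read on the reverse strand in Wif1. Each sequence runs 5′ to 3′ on the strand of its gene, which is the plus strand for all 3.
Wif1 chr10:121033754-121034053: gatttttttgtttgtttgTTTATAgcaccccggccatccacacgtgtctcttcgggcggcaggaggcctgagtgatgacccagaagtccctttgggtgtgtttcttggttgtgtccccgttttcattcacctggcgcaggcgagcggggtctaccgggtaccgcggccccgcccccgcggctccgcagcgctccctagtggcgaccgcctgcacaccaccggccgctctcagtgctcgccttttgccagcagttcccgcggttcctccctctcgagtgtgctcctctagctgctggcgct
Wnt4 chr4:137277385-137277684: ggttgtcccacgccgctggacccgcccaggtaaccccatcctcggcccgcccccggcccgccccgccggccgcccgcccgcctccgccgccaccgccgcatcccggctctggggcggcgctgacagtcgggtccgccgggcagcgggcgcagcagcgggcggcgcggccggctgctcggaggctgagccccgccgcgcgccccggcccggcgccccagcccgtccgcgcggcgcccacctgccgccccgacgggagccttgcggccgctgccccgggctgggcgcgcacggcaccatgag
Dkk2 chr3:132085042-132085341: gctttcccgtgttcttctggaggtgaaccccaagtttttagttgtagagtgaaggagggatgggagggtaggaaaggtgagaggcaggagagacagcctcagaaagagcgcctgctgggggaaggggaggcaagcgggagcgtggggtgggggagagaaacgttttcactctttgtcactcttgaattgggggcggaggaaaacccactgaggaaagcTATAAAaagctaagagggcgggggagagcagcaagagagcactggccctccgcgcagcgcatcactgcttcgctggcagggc
The Dkk2 match begins at -32 from the start and the Wif1 match at -232, and no other match to these letters was found in the 5 windows. Of 32544 promoters of the same length, 13.6% held TATAAA, 3.73% CTTTGAT and 7.79% TGANTCA. The 5 promoters were rich in G and C, at 84.3% in Wnt4, 79.7% in Wnt2b, 69.0% in Rspo1, 63.0% in Wif1 and 57.7% in Dkk2, against a median of 53.0% over all promoters. They held 51, 43, 29, 25 and 11 CpG dinucleotides in the same order, against a median of 7. A match or its absence in these windows is a description of letters and shows no binding.

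Levels of different genes were compared as RPKM, reads scaled to exon length and library depth, computed from the recovered reads. In DSS, Dkk3 at 29.2 RPKM and Sfrp1 at 28.6 RPKM led, and their ranges over the 2 libraries overlapped. Wnt5a at 11.5 RPKM, Wnt4 at 10.7 RPKM and Rspo3 at 10.4 RPKM followed, apart from the leading pair and overlapping each other. Wif1 at 2.23 RPKM and Rspo1 at 2.05 RPKM came next, then Wnt2b at 1.06 RPKM and Dkk2 at 0.635 RPKM, and Rspo2 was lowest at 0.200 RPKM. In water, Dkk3 at 11.5 RPKM stood alone above Sfrp1 at 5.21 RPKM. Rspo3, Wnt5a and Wnt4 formed the next group there, with means from 2.06 to 2.29 RPKM, followed by Wnt2b at 0.678 RPKM. Dkk2, Rspo1 and Wif1 had overlapping RPKM ranges below Wnt2b, and Rspo2 was last. In DSS plus montmorillonite the libraries were so far apart that only the step between Dkk2 and Rspo2 had ranges that did not overlap.

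Summed by role, the 3 Wnt ligands had 3.87 and 14.8 RPKM in DSS plus montmorillonite, 16.0 and 30.7 RPKM in DSS, and 5.20 and 4.67 RPKM in water. The 3 R-spondins had 2.34 and 8.52 RPKM in DSS plus montmorillonite, 14.4 and 11.0 RPKM in DSS, and 2.29 and 2.91 RPKM in water. The 4 inhibitor genes had 16.7 and 64.8 RPKM in DSS plus montmorillonite, 47.7 and 73.6 RPKM in DSS, and 14.2 and 20.5 RPKM in water. Ligand, R-spondin and inhibitor sums were each higher in both DSS libraries than in both water libraries. The inhibitor genes made up 72.9% and 73.5% of the RPKM of the 10 genes in DSS plus montmorillonite, 61.1% and 63.9% in DSS, and 65.4% and 73.0% in water. Dkk3, whose effect on Wnt signalling varies with the cell type, held between 46.5% and 68.6% of the inhibitor sum. The size of that sum therefore depends on counting Dkk3 as an inhibitor. Within the inhibitor sum, Sfrp1 held 33.7% and 50.1% in DSS plus montmorillonite, 45.6% and 48.1% in DSS, and 28.2% and 31.3% in water, so the balance between Dkk3 and Sfrp1 was nearer to even in DSS than in water. Rspo3 gave the greater part of the R-spondin sum in all 6 libraries, between 67.6% and 95.3%.

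**Figure D2:**
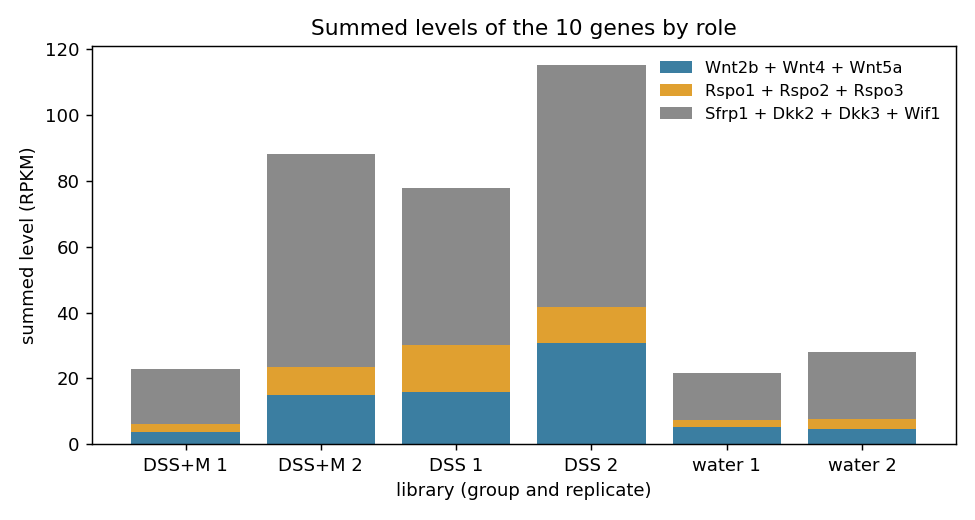
Summed levels by role in each library, in RPKM, as stacked bars from 0. Blue is the 3 Wnt ligands, orange the 3 R-spondins and grey the 4 inhibitor genes. Both DSS bars and replicate 2 of DSS plus montmorillonite stand above the other 3 bars, and the grey part, with Dkk3 counted as an inhibitor, is the largest in each bar.

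The genes with the most similar course over the 6 libraries were found by the mean absolute difference of log2(value + 1), each centred on its own mean, among all genes with a mean of at least 20. For Wnt5a they were Cep85l (0.11) and Cd200 (0.12), for Rspo3 Grap (0.06) and Lyl1 (0.10), and for Sfrp1 Lama4 (0.07), which encodes a laminin chain, and Spsb1 (0.10). For Dkk3 they were Mras (0.06) and Gjc1 (0.07), for Wif1 2700081O15Rik (0.15) and Elk3 (0.15), for Wnt4 Runx2 (0.12) and Plxnb1 (0.14), and for Wnt2b Zc3h12a (0.09) and Arl14 (0.16). No 2 of these 7 genes shared a nearest partner. With 6 libraries in 3 groups such closeness is a description of these libraries.

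With montmorillonite added to DSS, the 2 libraries differed widely. For 9 of the 10 genes replicate 2 was higher than replicate 1, the exception being Rspo2. Of the 9 genes other than Rspo2, replicate 1 was above both water libraries for 2, Wnt2b and Wif1, and replicate 2 for 9. Wnt2b and Wif1 had 23 and 7 reads in replicate 1, and Dkk2 had 12 reads in replicate 2, against 7 in replicate 2 of water. Counting error is not part of these orders. The shares of all genes with the same orders were not counted, so the counts are not read as a trait of these genes. As ratios to the water mean, replicate 1 had 0.762 for Wnt5a, 0.881 for Rspo3, 1.16 for Sfrp1 and 1.95 for Wif1. Replicate 2 had ratios of 2.73 for Wnt5a, 2.41 for Rspo3, 5.98 for Sfrp1 and 5.64 for Wif1. The sum of general fibroblast markers moved in the same way, at 14800.2 and 45811 in DSS plus montmorillonite, 42431 and 72359 in DSS, and 14384 and 17261 in water.

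Between DSS plus montmorillonite and water, limma called 0 of the 10 genes and 0% of all genes in either direction, with 0 of the 10 at an unadjusted p below 0.05. The count tests called none of the 10 in edgeR and none of the 6 that had an adjusted p in DESeq2, which called 0.438% of all genes higher and 0.556% lower. The groups did not overlap for Wnt2b and Wif1, both higher in DSS plus montmorillonite. That is 2 of the 9 genes other than Rspo2, where 21.5% of all genes had that order. None lay wholly below, where 19.2% of all genes did. The order of Wnt2b and Wif1 rests on 23 and 7 reads in replicate 1 of DSS plus montmorillonite. In replicate 1 of water they had 27 and 6 reads, so it is not established. The intervals were wide, for example 0.53 ± 0.65 SE with a 95% interval of -1.19 to 2.24 for the log2 fold change of Wnt5a, and 1.43 ± 0.83 SE with a 95% interval of -0.77 to 3.64 for that of Sfrp1. For Wif1 the log2 fold change was 1.57 ± 0.80 SE (95% interval -0.53 to 3.68, limma adjusted p = 0.651). Without replicate 2 of DSS plus montmorillonite, the log2 fold changes ran from -1.01 for Dkk2 to 1.47 for Rspo2. They were -0.39 for Wnt5a, -0.15 for Rspo3, 0.25 for Sfrp1 and 0.85 for Wif1. Without replicate 1 instead, they ran from -0.49 for Rspo2 to 3.06 for Rspo1. In that case Wnt5a had 1.44, Rspo3 1.28, Sfrp1 2.61 and Wif1 2.30.

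Between DSS plus montmorillonite and DSS, limma also called 0 of the 10 genes and 0% of all genes, again with 0 of the 10 at an unadjusted p below 0.05. EdgeR called none of the 10 and DESeq2 none of the 8 with an adjusted p, and DESeq2 called 0.246% of all genes higher and 0.0886% lower. In the limma fit of all 6 libraries none passed, and Wnt5a and Rspo3 had an unadjusted p below 0.05 (0.0245 and 0.0379), as did 11.3% of all genes. Both libraries of DSS plus montmorillonite lay below both DSS libraries for Wnt5a, Rspo3 and Wif1. For Wif1 the step, from 29.1 to 29.5, was smaller than 1 read (1.82) in replicate 2 of DSS plus montmorillonite. These are 3 of the 9 genes other than Rspo2, where 20.6% of all genes had that order. None of the 9 lay wholly above, where 19.4% of all genes did. The log2 fold change was -1.61 ± 0.64 SE for Wnt5a (95% interval -3.26 to 0.04, limma adjusted p = 0.691). It was -1.37 ± 0.57 SE for Rspo3 (95% interval -2.84 to 0.09, limma adjusted p = 0.691). For Wif1 it was -1.10 ± 0.70 SE (95% interval -2.91 to 0.72) and for Sfrp1 -0.78 ± 0.82 SE (95% interval -2.90 to 1.34). The intervals for Sfrp1 and Wif1 include no difference as well as a fall by more than the rise of DSS over water in the case of each gene. The value for Wnt5a turned on single libraries. Without replicate 2 of DSS plus montmorillonite its log2 fold change was -2.53 and passed limma (adjusted p = 0.0457), as did 285 of all 20307 genes, and the remaining library is assumed to vary like the others. Without replicate 1 it was -0.70 (limma adjusted p = 0.700). Without replicate 1 or 2 of DSS it was -1.73 and -1.49 (limma adjusted p = 0.940 and 1). The other 9 genes did not pass in any of these 4 fits. Both of these comparisons share the DSS plus montmorillonite libraries, and each shares its other group with the comparison of DSS and water.

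**Figure D3:**
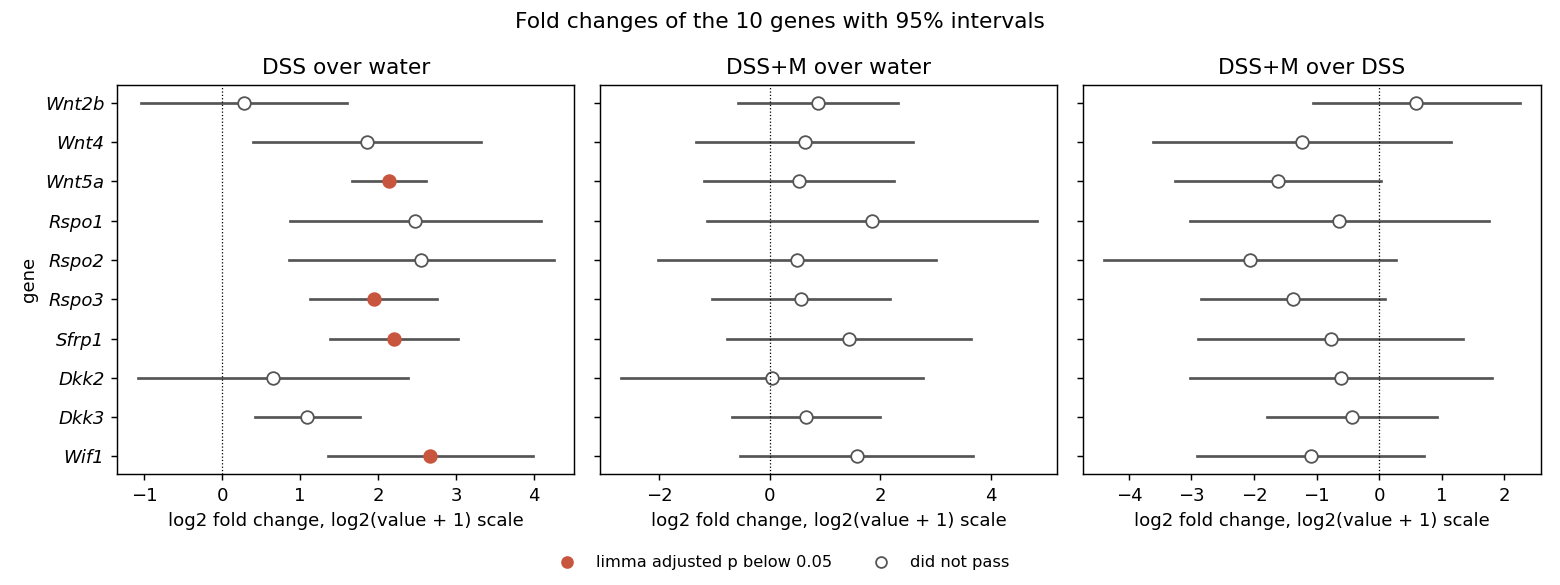
Log2 fold changes of the 10 genes on the log2(value + 1) scale with 95% intervals from limma, for DSS over water, DSS plus montmorillonite (DSS+M) over water and DSS plus montmorillonite over DSS. Filled points passed an adjusted p of 0.05, which 4 genes did in the left panel and none in the others, where the intervals cross 0.

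Markers of several stromal cell types, though not of smooth muscle, moved with these genes between DSS and water. In DSS over water 5 of 10 general fibroblast markers rose, as did 6 of 10 markers of subepithelial PDGFRA-high fibroblasts, 5 of 8 of crypt-base and submucosal fibroblasts, 5 of 6 of blood endothelium, 6 of 6 of leukocytes and 6 of 8 of enteric neurons, and none of these fell. All 8 epithelial markers fell. Of 10 smooth muscle markers 1 fell and 0 had a positive log2 fold change, with a median of -0.78. Fewer passed elsewhere, with 1 of 5 markers of lymphatic endothelium, 1 of 6 of enteric glia and 2 of 6 of mesothelium higher. Of 3 markers of interstitial cells of Cajal, 1 rose and 1 fell. Over all genes tested, 7.9% rose and 7.18% fell. Pdgfra, the receptor that marks these fibroblasts, had 495 and 2431 in DSS plus montmorillonite, 1871 and 2279.9 in DSS, and 519 and 607 in water, and rose in DSS over water (log2 fold change 1.88 ± 0.19 SE, limma adjusted p = 0.00661). Epithelial markers summed to 163072 and 89482 in DSS plus montmorillonite, 64901 and 44602 in DSS, and 153642 and 160339 in water. In RNA of whole tissue, more cells of a type and more RNA per cell cannot be told apart.

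To set the genes against fibroblast RNA, the values were divided by the geometric mean of the 10 general fibroblast markers of the same library and multiplied by 100. Wnt5a then had 10.1 and 13.2 in DSS plus montmorillonite, 24.4 and 15.7 in DSS, and 14.0 and 11.3 in water, so both DSS libraries were still highest. Rspo3 had 4.81 and 4.79 in DSS plus montmorillonite, 11.1 and 4.32 in DSS, and 4.53 and 5.65 in water, so replicate 2 of DSS was the lowest of the 6. Sfrp1 had 20.4 and 38.3 in DSS plus montmorillonite, 27.8 and 25.0 in DSS, and 14.1 and 18.6 in water. Sfrp1 was thus above water in all 4 DSS-treated libraries on this scale, as was Wif1. Between DSS plus montmorillonite and water 6.2% of all genes had this order. With 7 reads of Wif1 in replicate 1 of DSS plus montmorillonite and 6 and 2 in water, its order there is not established. Wif1 had 0.910 and 0.958 in DSS plus montmorillonite, 1.20 and 1.09 in DSS, and 0.544 and 0.353 in water. Wnt2b had 2.99 and 2.04 in DSS plus montmorillonite, 0.791 and 1.0 in DSS, and 2.45 and 1.77 in water, so relative to fibroblast markers Wnt2b was lowest in DSS. Dkk3 had 29.3 and 27.2 in DSS plus montmorillonite, 23.0 and 19.1 in DSS, and 26.5 and 29.7 in water, with both DSS libraries below the other 4.

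In a limma fit on this scale, 0 of the 10 genes passed between DSS and water and 0 had an unadjusted p below 0.05. Here 1.82% of all genes were called higher and 42.9% lower, since the median over all genes moved to -1.41 on the log2 scale. The log2 fold change of Wnt5a was 0.63 ± 0.58 SE (limma adjusted p = 0.376), that of Rspo3 0.43 ± 0.63 SE (limma adjusted p = 0.590), that of Sfrp1 0.70 ± 0.58 SE (limma adjusted p = 0.317) and that of Wif1 1.16 ± 0.85 SE (limma adjusted p = 0.252). Wnt5a, Sfrp1 and Wif1 had both DSS libraries above both water libraries, which is 3 of 10 where 5.86% of all genes had that order. Wnt2b and Dkk3 had both below, where 70.3% of all genes did. The part of the fibroblast content in the rise of the 4 genes was not tested beyond these values.

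Of 68 other genes listed for the pathway, 55 were in the table and tested. Between DSS and water 6 of the 55 rose and 7 fell in limma, where 7.9% of all genes rose and 7.18% fell. Among 10 other secreted or surface inhibitors 3 rose and none fell. Draxin, an axon guidance protein that also binds Lrp6, had 1.44 and 78.1 in DSS plus montmorillonite, 76.4 and 84.4 in DSS, and 4.80 and 4.55 in water (log2 fold change of DSS over water 3.84 ± 0.45 SE, limma adjusted p = 0.00875). Frzb, a relative of Sfrp1, had 28.8 and 50.9 in DSS plus montmorillonite, 68.7 and 133 in DSS, and 7.68 and 4.55 in water (log2 fold change of DSS over water 3.80 ± 0.54 SE, limma adjusted p = 0.0124). Apcdd1, a membrane-bound inhibitor, rose in DSS over water by 2.27 ± 0.47 SE on the log2 scale (limma adjusted p = 0.0302). Sfrp2, closest in kind to Sfrp1, had 46.0 and 107 in DSS plus montmorillonite, 63.7 and 299.6 in DSS, and 24.0 and 27.3 in water, and did not pass (limma adjusted p = 0.0784). The median log2 fold change over these 10 genes was 2.09.

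Of 9 other Wnt ligands tested, Wnt11 rose in DSS over water (log2 fold change 2.11 ± 0.53 SE, limma adjusted p = 0.0493) and Wnt8b fell by 3.29 ± 0.72 SE on the log2 scale (limma adjusted p = 0.0351). Among all genes tested, 7.9% rose and 7.18% fell. Wnt8b had 41.7 and 3.63 in DSS plus montmorillonite, 2.68 and 0.479 in DSS, and 29.8 and 15.9 in water. Porcn and Wls, which every secreted Wnt needs, did not pass (limma adjusted p = 0.157 and 0.261). Porcn had 48.9 and 139.9 in DSS plus montmorillonite, 57.3 and 217 in DSS, and 31.7 and 43.2 in water. Of 15 Frizzled receptors and co-receptors Fzd1 rose and none fell, with values for Fzd1 of 325 and 1105 in DSS plus montmorillonite, 755 and 1413 in DSS, and 269 and 305 in water (log2 fold change of DSS over water 1.85 ± 0.31 SE, limma adjusted p = 0.0188). Fzd7 and Lrp6 did not pass (limma adjusted p = 0.0867 and 0.0513).

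On the side that receives R-spondins, 3 of 5 genes fell and none rose between DSS and water, where 7.18% of all genes fell. The 8 epithelial markers all fell too, with a median log2 fold change of -1.47. The part of epithelial content in the falls of these receiving genes was not tested. Lgr4, a receptor present throughout the crypt, had 3507 and 1384 in DSS plus montmorillonite, 1308 and 734 in DSS, and 2679.9 and 2547 in water (log2 fold change of DSS over water -1.41 ± 0.29 SE, limma adjusted p = 0.0282). Lgr5, the receptor that marks crypt-base stem cells, had 0 and 1.82 in DSS plus montmorillonite, 4.02 and 2.88 in DSS, and 63.3 and 43.2 in water (log2 fold change of DSS over water -3.60 ± 0.52 SE, limma adjusted p = 0.0134). Rnf43 fell by 1.73 ± 0.35 SE on the log2 scale (limma adjusted p = 0.0292), and Znrf3 did not pass (limma adjusted p = 0.260). Lgr5 is overlapped on the other strand by A930009A15Rik, and Draxin by Mad2l2. Among the named pathway and target genes checked, Axin2 (antisense gene Gm11670), Rnf43, Sfrp2, Tcf7l2, Tcf7l1, Wnt11, Wls and Cd44 are overlapped by annotated genes as well. These overlaps are of whole gene spans, and whether exons are shared was not tested. Reads of a shared exon cannot be told apart.

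Axin2, a feedback inhibitor and common readout of β-catenin signalling, had 40.3 and 25.4 in DSS plus montmorillonite, 48.9 and 25.9 in DSS, and 155 and 171 in water. Axin2 fell in DSS against water by 2.16 ± 0.39 SE on the log2 scale (limma adjusted p = 0.0215). Tcf7l2, the main TCF factor of intestinal epithelium, and Tcf7l1 fell as well, by 1.32 ± 0.17 SE and 0.92 ± 0.19 SE on the log2 scale (limma adjusted p = 0.0101 and 0.0307), while Tcf7, which T cells also express, rose by 1.25 ± 0.28 SE (limma adjusted p = 0.0371). Of 15 epithelial Wnt target genes, 5 fell in DSS against water, namely Lgr5, Axin2, Ascl2, Rnf43 and Sox9, where 7.18% of all genes fell. Cd44 and Tcf7, both of which leukocytes also express, were the 2 that rose, where 7.9% of all genes did. As given above, all 8 epithelial markers fell and leukocyte markers rose in the same libraries, and the part of this in the target genes was not tested.

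In both DSS plus montmorillonite libraries Axin2, Lgr5 and Ascl2 were below both water libraries, an order that 19.2% of all genes had. They are 3 of 15 epithelial Wnt target genes, and Ascl2 was chosen after its values were seen. None of the 15 passed limma between DSS plus montmorillonite and water. Their median log2 fold change was -0.56, and 3 of the 15 had a positive one. Epithelial markers summed to 163072 in replicate 1 of DSS plus montmorillonite, against 153642 and 160339 in water. Ratios to the water mean in replicate 1 ran from 0.398 for Dkk2 to 1.95 for Wif1 over the members other than Rspo2. The part of tissue content in the target genes was not tested. In that library Axin2 had 40.3, Lgr5 had 0 and Ascl2 had 1.44, against water values of 155 and 171 for Axin2, 63.3 and 43.2 for Lgr5 and 49.0 and 59.1 for Ascl2. Between DSS plus montmorillonite and water, Axin2 had a log2 fold change of -2.31 ± 0.40 SE and did not pass limma (adjusted p = 0.629). DESeq2 on the recovered reads called Axin2 (adjusted p = 0.00972), Lgr5 (adjusted p = 0.0265) and Ascl2 (adjusted p = 0.0234) lower, while edgeR called none of the 3 (adjusted p = 0.371, 0.362 and 0.298). From counts of 42 and 236 reads, the ratio of DSS plus montmorillonite to water for Axin2 was 0.212, with an exact 95% interval of 0.149 to 0.295. Ascl2 had 1 read against 77 reads. For Lgr5, with 1 read against 85 reads, the ratio was 0.0140 with an interval of 0.000350 to 0.0801. Reads of both libraries of a group were pooled for these intervals. They cover counting error only, and leave out the spread between libraries.

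**Figure D4:**
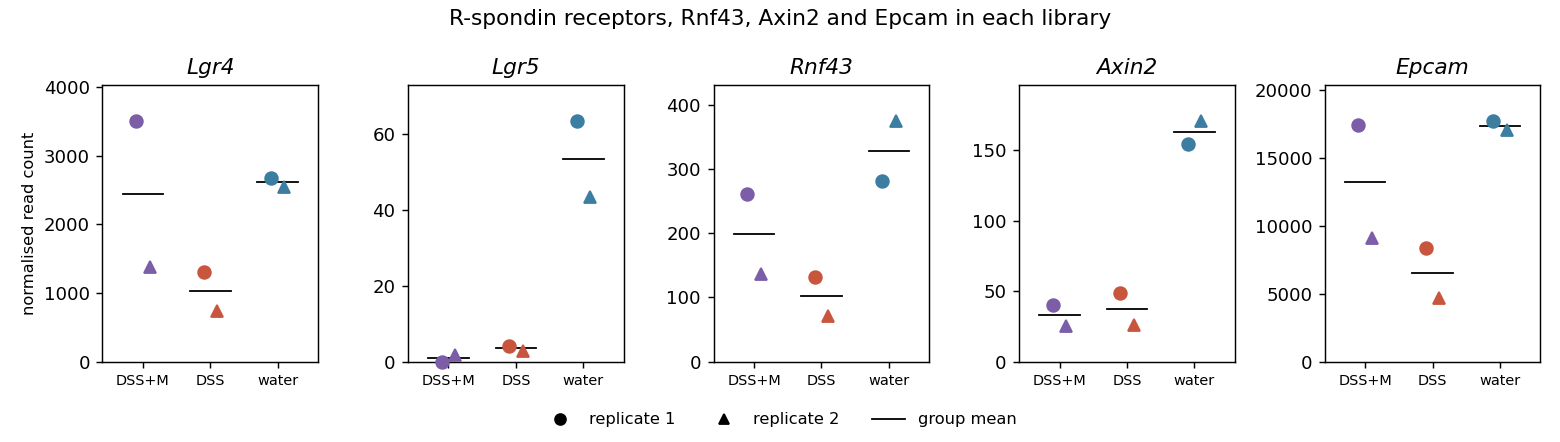
Normalised read counts of Lgr4, Lgr5, Rnf43, Axin2 and the epithelial marker Epcam in each library, with circles for replicate 1, triangles for replicate 2 and bars for group means of DSS plus montmorillonite (DSS+M), DSS and water. All 4 DSS-treated libraries are far below water for Lgr5 and Axin2. Replicate 1 of DSS plus montmorillonite is near or above water for Lgr4 and Epcam.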

How the data were processed

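The authors deposited signal values, 1 for each gene in each of 6 libraries. Each library's values were counts of reads scaled by 1 factor: dividing by the value of 1 read gave whole reads for 100% of values, to within 0.01 read. The build was mm10 (GRCm38), per the submitters' processing notes; the aligner, the counter and the normalization tool are not given in the sources used here. All columns were used. Of 20533 identifiers, 20500 were found in GENCODE M21 without their version.

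Values were tested as log2(value + 1) with limma's trended moderated test (limma 3.58.1, R 4.3.3), two-sided, after removing 226 genes whose mean was under 1, which left 20307. Each comparison was fitted on its 4 libraries, with 2 residual and 3.92, 2.56 and 2.91 prior degrees of freedom for DSS against water, DSS plus montmorillonite against water and DSS plus montmorillonite against DSS, and p-values were adjusted by Benjamini-Hochberg over all genes at 0.05. Fold changes on this scale understate those of low genes. An exact permutation test of 2 against 2 cannot go below 0.333 and was not used. On recovered reads, edgeR 4.0.16 called 2993 genes between DSS and water and DESeq2 1.42.0 called 4012, against 3064 in limma, and limma with 6 libraries in 1 fit called 0 (4662 at an unadjusted p below 0.05). Other alternatives were a pseudocount of 5, no filter, a mean of at least 10, other scalings, the replicate number as a block and leaving out each library. RPKM used the recovered reads and merged exon lengths.

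The members, gene lists and the choice of fits of 4 libraries were made with earlier results of these data known, so they are not independent evidence of any direction. Scaling to fibroblast markers was chosen after seeing the data. Named genes were the 10 members, from each pathway list up to 3 called genes, smallest p first, genes fixed for their role, and the 2 genes nearest in course to each member with a mean of at least 20. Ascl2 and Pdgfra were named after their values were seen, and not every gene the rule takes is described. The labels give no batch.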

Additional observations from a re-analysis of the deposited data

How the results depend on the processing

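The calls between DSS and water rest on few libraries. Limma on the deposited values called 4 of the 10 genes, 13 other pathway genes and 3064 genes in all. With all 6 libraries in 1 fit the counts were 0, 0 and 0. Leaving out each library in turn gave 0 of the 10 genes, 0 to 2 pathway genes and 0 to 317 genes in all, with 0 in all without either DSS library, 288 without replicate 1 of water and 317 without replicate 2. The lone library of a group is then assumed to vary like the others. Wnt5a, Rspo3, Sfrp1 and Wif1 kept their direction under every alternative tried, and had limma adjusted p values of 0.0532 to 0.201 with a library left out. Scaling to fibroblast markers called 0 of the 10, 27 pathway genes (2 higher and 25 lower) and 9084 genes in all, and DESeq2 called 7 of the 10 and 22 pathway genes. A pseudocount of 5, no filter, a mean of at least 10, scaling by library size, TMM scaling and edgeR called 4 to 6 of the 10. A mean of at least 10 leaves out Rspo2.

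Replicate numbers were shared by the groups, but the deviations of same-numbered libraries had correlations of 0.30, 0.08 and 0.09, so the numbers were not taken to pair them. With the replicate number as a block the counts between DSS and water were 8 of the 10 genes, 25 pathway genes and 5084 genes in all, and 0 in the other comparisons.

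Between DSS plus montmorillonite and water, scaling to fibroblast markers called 1 pathway gene and 59 genes in all, and DESeq2 2 pathway genes and 202 in all. Between DSS plus montmorillonite and DSS, DESeq2 called 68 genes in all. There, leaving out each library gave 0 to 1 of the 10 genes (Wnt5a), 0 to 2 pathway genes and 0 to 285 genes in all, the higher counts being without replicate 2 of DSS plus montmorillonite.

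Some log2 fold changes changed sign, none of them a call. With scaling to fibroblast markers, DSS over water was -1.23 for Wnt2b, -0.86 for Dkk2 and -0.42 for Dkk3. On that scale DSS plus montmorillonite over water was -0.021 for Wnt4, -0.12 for Wnt5a, -0.16 for Rspo2, -0.083 for Rspo3 and -0.61 for Dkk2, and DSS plus montmorillonite over DSS was 0.22 for Rspo1, 0.084 for Sfrp1, 0.25 for Dkk2 and 0.43 for Dkk3. With a library left out, DSS over water ranged from -0.31 to 0.87 for Wnt2b and from -0.010 to 1.31 for Dkk2. DSS plus montmorillonite over water ranged from -0.38 to 1.64 for Wnt4, -0.39 to 1.44 for Wnt5a, -0.49 to 1.47 for Rspo2, -0.15 to 1.28 for Rspo3, -1.01 to 1.09 for Dkk2 and -0.016 to 1.33 for Dkk3. DSS plus montmorillonite over DSS ranged from -1.86 to 0.59 for Rspo1, -1.96 to 0.40 for Sfrp1, -1.66 to 0.44 for Dkk2, -2.53 to -0.70 for Wnt5a (no change of sign) and -1.11 to 0.25 for Dkk3. The causes were not tested. Low genes such as Rspo2, Dkk2 and Rspo1 are limited by depth, most of all in the water library of 3741494 reads.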

Other observations

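Among the 9 other Wnt ligands tested, Wnt7b, Wnt10a and Wnt16 had their highest values in replicate 2 of DSS and of DSS plus montmorillonite, the libraries with the most squamous marker RNA. Wnt7b had 0 and 18.2 in DSS plus montmorillonite, 4.02 and 108 in DSS, and 0 and 2.27 in water. Wnt10a had 1.44 and 12.7 in DSS plus montmorillonite, 0.670 and 109.8 in DSS, and 0.960 and 0 in water. Wnt16 had 1.44 and 18.2 in DSS plus montmorillonite, 3.69 and 45.5 in DSS, and 0.960 and 0 in water. Both DSS libraries were above both water libraries for Wnt7b and Wnt16 as well, which was the case for 33.9% of all genes. In replicate 2 of water 1 read is worth 2.27, and a count of 0 allows a value of 6.82. For Wnt16, which had 0 there, that is above replicate 1 of DSS. For Wnt7b the step from 2.27 in that library to 4.02 in replicate 1 of DSS was smaller than 1 read. The order is therefore not established for either gene. None of the 3 ligands passed limma between DSS and water (adjusted p = 0.152, 0.286 and 0.106), and the part of squamous epithelium in their values was not tested. These 3 genes were chosen after their values were seen.

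Grem1, an inhibitor of BMP signalling that marks crypt-base and submucosal fibroblasts, had 663 and 3363 in DSS plus montmorillonite, 6632 and 4858 in DSS, and 324 and 457 in water. It rose in DSS over water by 3.88 ± 0.25 SE on the log2 scale (limma adjusted p = 0.00256). Foxl1, a marker of the subepithelial fibroblasts that line the crypt, had 12.9 and 36.3 in DSS plus montmorillonite, 25.1 and 47.0 in DSS, and 31.7 and 27.3 in water, and its groups overlapped (limma adjusted p = 0.780). Both were chosen after their values were seen, and neither stands for its list. In DSS over water all 10 subepithelial fibroblast markers had positive log2 fold changes, with a median of 1.16, and 6 passed. Of 8 crypt-base and submucosal markers 7 were positive, with a median of 1.69, and 5 passed.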
